A study of Sus scrofa with 6 samples.

Results

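The carnitine shuttle brings long-chain fatty acids into mitochondria for oxidation. It was followed here in pig ear cartilage cells through 9 of the 19670 deposited gene models. They are CPT1A, a second model with the CPT1A protein name (ENSSSCG00000012881), CPT1B, CPT1C, CPT2, SLC25A20, SLC22A5, CRAT and CROT. Of these, 7 were found by symbol, 1 by its identifier and 1 (SLC22A5) by its protein name. The cells were primary cells freed by enzymes from the external ear (auricular) cartilage of 1 pig of 4 months, a Duroc x (Landrace x Large White) cross with wild-type PPARD. GW0742, which activates PPARD (a nuclear receptor that senses fatty acids), was given for 24 h to 3 of the 6 sequenced samples, and DMSO alone to the 3 controls. Whether the samples of a group were grown apart is not stated, so the tests below weigh the treatment only against the variation among these samples, part or all of which may be technical. RNA of bulk cultures was measured, so more cells of a type and more RNA per cell cannot be told apart.

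Fatty acids reach mitochondria in a relay. Cells take up carnitine through the plasma membrane transporter SLC22A5. At the outer mitochondrial membrane a CPT1 enzyme moves the acyl group from coenzyme A to carnitine, the step that malonyl-CoA inhibits and that limits the flow. SLC25A20 exchanges the acylcarnitine across the inner membrane for free carnitine, and CPT2 on the inner side returns the acyl group to coenzyme A. CPT1A is known as the liver isoform and is widely expressed, CPT1B as the muscle isoform and CPT1C as the brain isoform. CRAT works on acetyl and other short acyl groups, and CROT on the medium-chain products of peroxisomes. CPT1A is a textbook target of the PPAR receptors.

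With GW0742 the first enzyme of the relay rose and the last one showed no detectable change. CPT1A rose by a fold of 3.86 and its second model by a fold of 5.70 (edgeR). SLC25A20, which stands between CPT1 and CPT2, was higher by a fold of 1.55 and fell just short of the threshold. CPT2 and CRAT differed by less than their spread between libraries. CPT1B and CPT1C were too low to test.

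Of the 9 models, 7 passed the filter on low counts (a minimum count of 10, by group), and CPT1B and CPT1C did not. At an adjusted p under 0.05 in edgeR's quasi-likelihood test, 2 of the 7 were higher with GW0742, against 0.184% of all 14146 tested models. None of the 7 was lower, against 0.0778% of all tested models. At an unadjusted p under 0.05, 3 of the 7 were higher, against 7.93% of all tested models, and 0 lower, against 8.91%. DESeq2 called 3 higher, against 1.46% of all tested models, and 0 lower. The median log2 fold change was 0.52 over the 7 models and -0.0015 over all tested models. That 0.52 is the value of SLC22A5, which did not pass (edgeR adjusted p = 0.328). The 2 edgeR calls are the 2 CPT1A models, which match the same pig protein and may not be independent, so these counts may hold CPT1A more than once. The members were also chosen with earlier results of these data known, so the counts are no independent evidence.

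**Figure D1:**
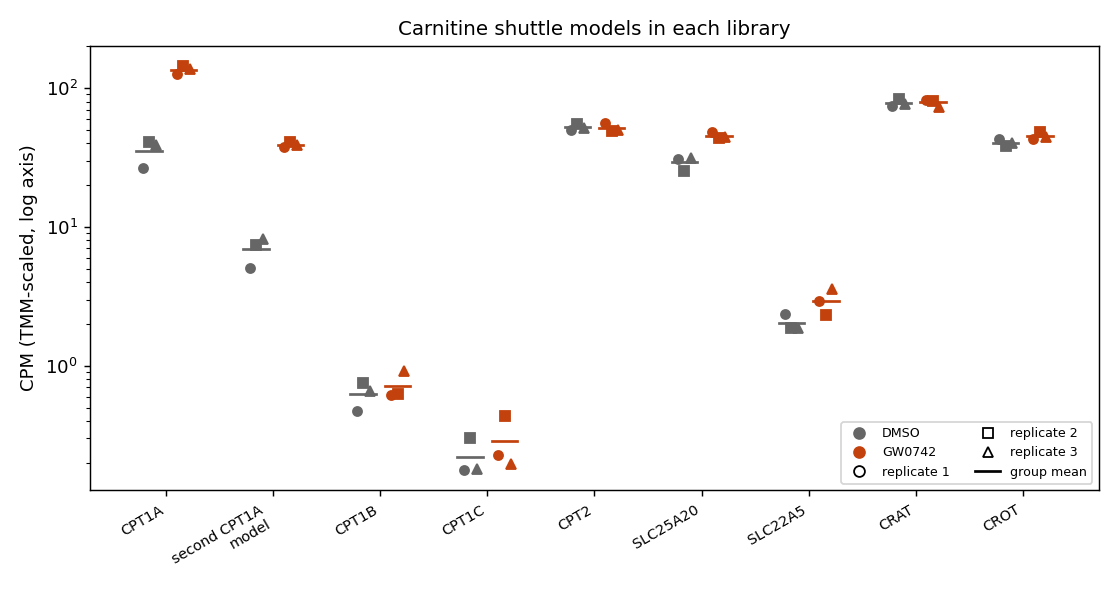
Levels in CPM (TMM-scaled, log axis) of the 9 carnitine shuttle models in each library, with DMSO in grey and GW0742 in orange, symbols for replicates and bars for group means. CPT1A lies between 26.5 and 40.7 CPM in the DMSO libraries, between 127 and 144 CPM in the GW0742 libraries, while the CPT2 and CRAT groups overlap.

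SLC22A5, the high-affinity carnitine transporter, was a low transcript. Levels are given in CPM, estimated reads scaled to a common library size. It stood at 2.37, 1.88 and 1.86 CPM in the DMSO libraries, from 40, 25 and 31 estimated reads. With GW0742 it stood at 2.91, 2.31 and 3.59 CPM, from 38, 37 and 55 reads. The groups overlapped, since GW0742 replicate 2 lay below DMSO replicate 1. The log2 fold change was 0.52 ± 0.24 (SE, edgeR adjusted p = 0.328), with a 95% interval from -0.03 to 1.08. The interval spans values from no change to its upper bound, so a change of this transporter was not resolved at this depth.

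CPT1A (ENSSSCG00000012880), which commits long-chain fatty acids to the mitochondrion, stood at 26.5, 40.7 and 38.7 CPM in the DMSO libraries. In the GW0742 libraries it stood at 127, 144 and 136 CPM. The groups did not overlap, and DMSO replicate 1 was the lowest library of all. Group means were 35.3 ± 7.68 and 136 ± 8.45 CPM (SD, n = 3 per group). The log2 fold change was 1.95 ± 0.14 (SE, edgeR adjusted p = 0.00151), with a 95% interval from 1.62 to 2.27, and CPT1A ranked 4 among all tested models by p. The call held in edgeR without any single library, with log2 values from 1.77 to 2.06. It was lost in limma on log2(RPKM + 0.1) of the deposited values, which are scaled by length and depth (log2 difference 1.87, adjusted p = 0.0656).

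The second model with the CPT1A protein name, ENSSSCG00000012881, stood at 5.10, 7.43 and 8.16 CPM with DMSO and at 37.9, 40.8 and 38.9 CPM with GW0742. Here too the groups did not overlap, and DMSO replicate 1 was again the lowest. Its log2 fold change was 2.51 ± 0.15 (SE, edgeR adjusted p = 0.000587), with a 95% interval from 2.16 to 2.86, and it ranked 2 among all tested models. The call held in all 12 alternatives in which this model was tested, with log2 values from 2.32 to 2.66.

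Both models were matched by the authors' deposited annotation to the same pig protein, the liver isoform of carnitine O-palmitoyltransferase 1. RefSeq (Sscrofa11.1) lists 1 gene of that symbol. The model with the symbol is 4392 bases long by the deposited tables and holds 5 transcripts, and the second is 1048 bases long with 1 transcript. Whether both models are parts of 1 gene was not tested, and how reads they could share were divided is not given. The level of each alone, their shares and their sum are therefore uncertain. With models of 1 protein name summed, CPT1A rose by a log2 fold change of 2.06 (edgeR adjusted p = 0.000393).

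The 2 models did not move in exact proportion. The second model held 16.1%, 15.4% and 17.4% of the reads of both in DMSO replicates 1, 2 and 3, and 23.0%, 22.1% and 22.2% in the GW0742 replicates. All DMSO shares lay below all GW0742 shares. The 95% Wilson intervals ran from 12.9% to 20.2% over the DMSO libraries and from 20.6% to 24.8% over the GW0742 libraries, and cover counting error only. Group means were 16.3% ± 0.99 and 22.4% ± 0.49 (SD, n = 3 per group), and the exact permutation test gave p = 0.1 (two-sided), the smallest p that 3 against 3 libraries allow. On the deposited RPKM values the share differed by 9.12 percentage points in place of 6.09.

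**Figure D2:**
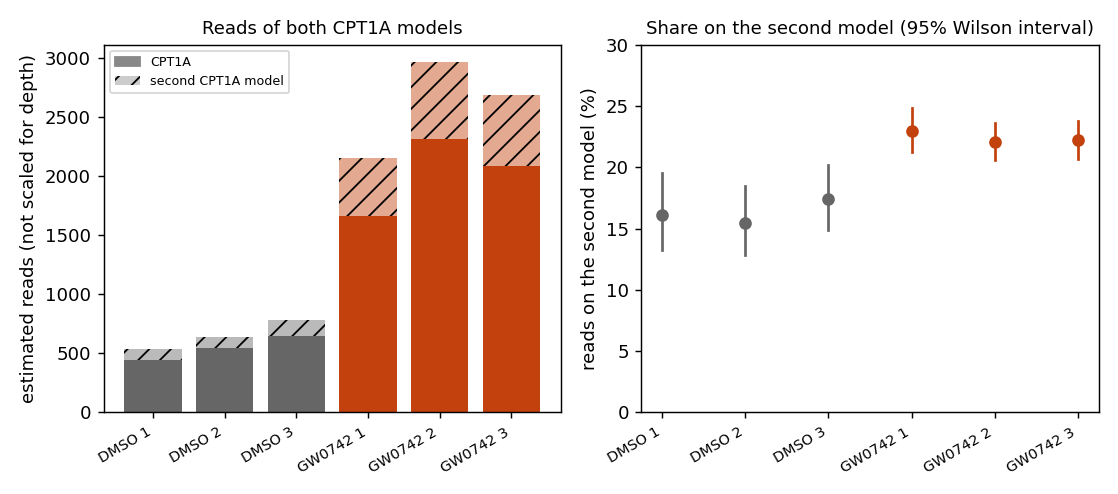
Estimated reads of both CPT1A models in each library, not scaled for depth (left, stacked bars), and the share of these reads on the second model in percent with its 95% Wilson interval (right). The share lies between 15.4% and 17.4% in the DMSO libraries and between 22.1% and 23.0% in the GW0742 libraries.

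The deposited reads and RPKM of the 5-transcript CPT1A model do not match its listed length, and what that length stands for in models with several transcripts is not stated. For models with 1 transcript the deposited reads and RPKM imply a length close to the listed one, as in the second CPT1A model (1042 against 1048 bases). For CPT1A they imply 1576, 1510 and 1416 bases in the DMSO libraries and 1610, 1632 and 1628 bases in the GW0742 libraries. All of these lie far below the listed 4392 bases, and the GW0742 values lie above the DMSO values (exact permutation p = 0.1, two-sided, the smallest possible). The deposited RPKM of CPT1A is therefore higher than its reads over its listed length, at 21.8 against 7.39 with DMSO and 78.4 against 29.0 with GW0742.

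The other CPT1 isoforms were close to the detection limit. CPT1B, the muscle isoform, had 8, 10 and 11 reads in the DMSO libraries and 8, 10 and 14 in the GW0742 libraries, or 0.63 ± 0.14 and 0.72 ± 0.17 CPM (SD, n = 3). CPT1C, the brain isoform, had 3, 4 and 3 reads with DMSO and 3, 7 and 3 with GW0742. A count of 3 reads was taken as the floor, so 4 of the 6 CPT1C libraries sat on it, and no fold is given. The groups overlapped for both isoforms. Counted per length in deposited RPKM, both CPT1A models made up 98.3% ± 0.24 of all CPT1 signal with DMSO and 99.5% ± 0.07 with GW0742 (SD, n = 3).

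SLC25A20, the carnitine-acylcarnitine translocase of the inner membrane, stood at 30.9, 25.2 and 31.5 CPM with DMSO and at 48.4, 43.8 and 44.2 CPM with GW0742. The groups did not overlap, and the lowest DMSO library was replicate 2, not replicate 1 as for CPT1A. The log2 fold change was 0.64 ± 0.10 (SE, edgeR adjusted p = 0.0509), with a 95% interval from 0.41 to 0.86 that is not adjusted for the number of models tested. It passed in DESeq2 (adjusted p = 4.83e-05) and in edgeR with models of 1 protein name summed (adjusted p = 0.0375). The adjusted p was between 0.066 and 0.181 when any 1 library was left out. In edgeR it was 0.0516 with median-of-ratios scaling, 0.135 with no filter and 0.142 with the replicate number as a block. In limma it was 0.118 on log2(RPKM + 1) and 0.149 on log2(RPKM + 0.1).

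CPT2, which rebuilds acyl-CoA inside the mitochondrion, stood at 50.1, 54.8 and 51.7 CPM with DMSO and at 56.2, 48.9 and 50.2 CPM with GW0742. The groups overlapped, with the highest and the lowest library both in the GW0742 group. The log2 fold change was -0.01 ± 0.08 (SE, edgeR adjusted p = 0.956), and its 95% interval ran from -0.19 to 0.16. A rise of CPT2 on the scale of CPT1A lies outside that interval.

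The change of CPT1A was set against that of CPT2 within each library, where depth cancels. The log2 ratio of CPT1A to CPT2 reads was -0.92, -0.43 and -0.42 in the DMSO libraries and 1.18, 1.56 and 1.44 in the GW0742 libraries. The difference of the group means was 1.98, with no overlap (exact permutation p = 0.1, two-sided, the smallest possible). SLC25A20 against CPT2 moved by 0.66 on the same scale and CPT1A against SLC25A20 by 1.32, both also without overlap at p = 0.1 in the exact permutation test. These 3 ratios share their members, and with 3 libraries a group none could reach 0.05.

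**Figure D3:**
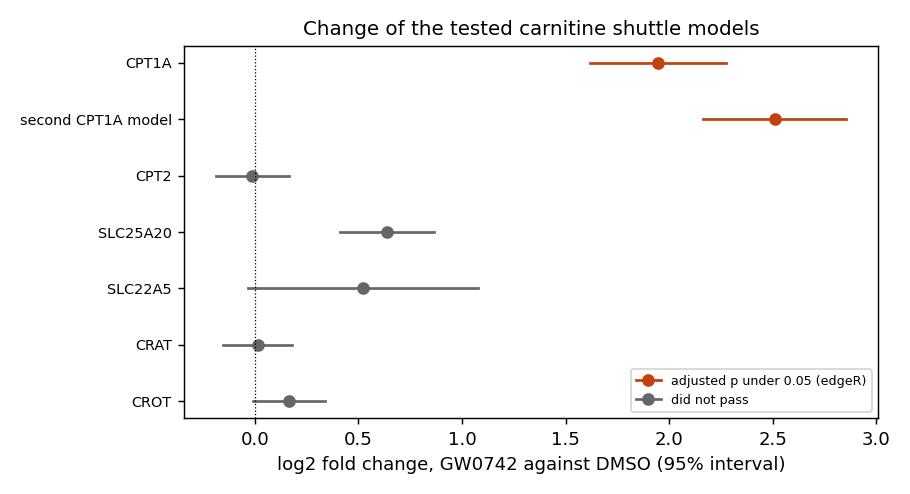
Log2 fold changes of the 7 tested carnitine shuttle models, GW0742 against DMSO, with 95% intervals from edgeR's quasi-likelihood fit (not adjusted for multiple testing). The 2 CPT1A models (orange) passed at an adjusted p under 0.05, SLC25A20 lies at 0.64, and the intervals of CPT2, CRAT, CROT and SLC22A5 include 0.

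Neither carnitine acyltransferase of shorter chains passed the test. CRAT, which buffers acetyl-CoA in mitochondria, stood at 74.7, 82.8 and 76.9 CPM with DMSO and at 82.2, 81.4 and 72.8 CPM with GW0742. The groups overlapped, and the log2 fold change was 0.01 ± 0.07 (SE, edgeR adjusted p = 0.952), with a 95% interval from -0.15 to 0.18. CROT, the peroxisomal octanoyltransferase, stood at 42.7, 38.5 and 40.2 CPM with DMSO and at 43.3, 48.3 and 44.4 CPM with GW0742. Its groups did not overlap, though DMSO replicate 1 and GW0742 replicate 1 lay close together. The log2 fold change was 0.17 ± 0.08 (SE, edgeR adjusted p = 0.324), with a 95% interval from -0.01 to 0.34.

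Counting by overlap, 4 of the 7 tested models had every GW0742 library above every DMSO library in CPM: CPT1A, its second model, SLC25A20 and CROT. The same held for 11.4% of all tested models. None of the 7 had every GW0742 library below every DMSO library, against 12.1% of all tested models.

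Per length, the order of the members differed between the groups. With DMSO, CRAT was highest in deposited RPKM at 27.5 ± 1.1, followed by CPT1A at 21.8 ± 5.3, CPT2 at 15.9 ± 0.51, SLC25A20 at 15.4 ± 2.0 and CROT at 11.99 ± 0.81 (SD, n = 3). CPT1A overlapped with CPT2, and CPT2 with SLC25A20, so those neighbours do not differ beyond their spread. The second CPT1A model followed at 6.09 ± 1.4, SLC22A5 at 1.07 ± 0.18, CPT1B at 0.40 ± 0.08 and CPT1C at 0.08 ± 0.03, with no overlap between neighbours.

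With GW0742, CPT1A stood first at 78.4 ± 5.8 RPKM and its second model next at 35.3 ± 2.0 (SD, n = 3). CRAT at 28.3 ± 2.1, SLC25A20 at 24.4 ± 1.1, CPT2 at 16 ± 1.0 and CROT at 13.7 ± 1.0 followed, and no neighbours overlapped. SLC22A5 stood at 1.57 ± 0.33. By reads over the listed lengths the GW0742 order differed: the second CPT1A model was first at 35.04 ± 2.0, and CPT1A at 29.0 ± 2.3 overlapped with CRAT at 28.4 ± 2.1. With DMSO CPT1A then stood below CROT and overlapped with its second model, at 7.39 ± 1.5 against 6.05 ± 1.4. In deposited RPKM CPT1A was 1.37 ± 0.31 times CPT2 with DMSO and 4.93 ± 0.61 times with GW0742. By reads over the listed lengths these ratios were 0.463 ± 0.086 and 1.81 ± 0.24. The place of CPT1A above or below CPT2 in the DMSO cells thus turned on the length used, while the second model, whose implied and listed lengths nearly coincide, was 0.383 ± 0.082 and 2.21 ± 0.23 times CPT2 in RPKM.

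The libraries held between 13133980 and 16913745 estimated reads each, and 3 reads correspond to between 0.178 and 0.23 CPM. No replicate pair agreed within sampling noise (chi-square per degree of freedom from 4.34 to 16). All 7 listed cartilage markers were detected, with summed levels of 2228 to 2372 CPM in DMSO and 1793 to 1921 CPM in GW0742 libraries. ACAN, COL2A1 and COL11A1 made up most of that sum, while COL9A1 and MATN3 stood at 1.74 and 2.04 CPM with DMSO. Of 5 listed fibroblast markers 3 had a symbol match: COL1A2, VIM and THY1. They summed to 52277 to 56553 CPM in DMSO and 46528 to 51964 CPM in GW0742 libraries. As with the cartilage sums, the groups did not overlap. COL1A2 made up most of the fibroblast sum, with means of 39574 CPM in DMSO and 35118 CPM in GW0742 libraries. VIM stood at 13872 and 13795 CPM and THY1 at 712 and 585 CPM.

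The matched markers of skeletal muscle and of adipocytes were low. Skeletal muscle markers, of which 3 of 7 matched (MYOD1, CKM and ACTA1), summed to 4.63 to 6.08 CPM in DMSO and 4.14 to 4.74 CPM in GW0742 libraries. Adipocyte markers, of which 2 of 5 matched (LEP and CIDEC), summed to 0.375 to 0.534 and 0.153 to 0.196 CPM. No matched marker of either list was at 0 in all libraries. Endothelial markers moved in the same direction as CPT1A: 6 of 7 matched (PECAM1, KDR, TIE1, CLDN5, ESAM and EGFL7) and their sums were 62.9 to 88.5 CPM in DMSO and 97.9 to 133 CPM in GW0742 libraries, with none at 0. Smooth muscle markers (4 of 4 matched) summed to 4648 to 4838 and 3551 to 4178 CPM, also without overlap. Neuron (4 of 5), keratinocyte (2 of 3) and leukocyte markers (4 of 4) overlapped between the groups, at 57.0 to 70.5, 1.32 to 3.45 and 24.4 to 31.1 CPM over all libraries. The part of these shifts in the CPT1A result was not tested.

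The genes around the shuttle were counted in 8 lists. Of the 12 acyl-CoA synthetases and fatty acid transport proteins, which make the acyl-CoA that CPT1 uses, 8 were tested and none passed in edgeR or DESeq2 (unadjusted p under 0.05: 2 higher, 0 lower, against 7.93% and 8.91% of all tested models). ACSL3 had the highest log2 fold change, at 26.6 ± 0.70 and 32.9 ± 3.4 CPM (log2 0.31 ± 0.09, edgeR adjusted p = 0.164). ACSL4, an arachidonate-preferring synthetase, had the lowest, at 84.9 ± 2.0 and 76.4 ± 4.8 CPM (log2 -0.15 ± 0.07, edgeR adjusted p = 0.305). The list median was 0.07.

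Of 7 genes of carnitine synthesis and other carnitine carriers, 5 matched and 2 were tested, with none past the threshold in edgeR or DESeq2 and 0 at an unadjusted p under 0.05. TMLHE, the first enzyme of carnitine synthesis, stood at 20.1 ± 1.5 and 20.6 ± 2.3 CPM (log2 0.03 ± 0.11), and SLC16A9, a carnitine efflux carrier, at 1.83 ± 0.24 and 1.45 ± 0.24 CPM (log2 -0.34 ± 0.24, edgeR adjusted p = 0.522). BBOX1, the last enzyme of carnitine synthesis, was under the floor of 3 reads in every library.

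No tested gene of the malonyl-CoA switch that restrains CPT1 passed in edgeR. Malonyl-CoA decarboxylase (MLYCD) had no symbol match and was not tested. Of 11 genes for acetyl-CoA carboxylases, malonyl-CoA decarboxylase, AMP-activated kinase and its activator, 10 matched, 9 were tested and 0 passed in edgeR (unadjusted p under 0.05: 1 higher, 3 lower), while DESeq2 called 1 lower. Over all tested models the unadjusted shares were 7.93% higher and 8.91% lower, and DESeq2 called 1.65% lower. ACACB, the carboxylase tied to the mitochondrial outer membrane, stood at 36.6 ± 1.6 and 38.9 ± 3.4 CPM (log2 0.09 ± 0.09, edgeR adjusted p = 0.630). PRKAA1, a catalytic subunit of the kinase, had the lowest log2 fold change of the list (-1.27 ± 0.47, edgeR adjusted p = 0.233). It stood at 19.8, 21.0 and 17.1 CPM with DMSO and at 5.67, 2.68 and 15.6 CPM with GW0742, so GW0742 replicate 3 lay near the DMSO libraries. The highest was PRKAA2 (log2 0.36 ± 0.43), which stood below 1 CPM in both group means. PRKAB2, a regulatory subunit that DESeq2 called lower (adjusted p = 0.0453), stood at 23.5 ± 3.1 and 16.4 ± 2.1 CPM (log2 -0.51 ± 0.13, edgeR adjusted p = 0.125).

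Downstream of CPT2, none of 14 tested genes of mitochondrial beta-oxidation passed in edgeR (unadjusted p under 0.05: 3 higher, 1 lower), and DESeq2 called 1 higher, against 7.93%, 8.91% and 1.46% of all tested models. The list median was 0.05. ETFB, an electron carrier that accepts electrons from acyl-CoA dehydrogenases, had the highest value (log2 0.49 ± 0.09, edgeR adjusted p = 0.0661) and was the gene DESeq2 called. The lowest was ACADVL (log2 -1.28 ± 0.55, edgeR adjusted p = 0.285), at 0.90 ± 0.33 and 0.36 ± 0.26 CPM. It was the 1 gene lower by unadjusted p. ACADVL passed the filter on low counts only through the DMSO libraries, so the size of its fold is uncertain. A further model without a symbol carries the protein name of the same very long-chain acyl-CoA dehydrogenase (ENSSSCG00000020972, named after its values were seen) and stood at 62.4 ± 2.0 and 67.8 ± 4.1 CPM (log2 0.12 ± 0.07, edgeR adjusted p = 0.421).

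In peroxisomes, which hand medium-chain products to CROT, 1 of 9 tested genes rose in edgeR and none fell (2 higher and 0 lower by unadjusted p below 0.05, with 1 and 0 in DESeq2). Of all tested models 0.184% were higher in edgeR, 7.93% by unadjusted p and 1.46% in DESeq2. That gene was catalase (CAT), which breaks down hydrogen peroxide (log2 0.75 ± 0.06, edgeR adjusted p = 0.00384), at 65.6, 63.5 and 59.6 CPM with DMSO and 109, 107 and 102 CPM with GW0742. The lowest value was that of ACOX3 (log2 -0.14 ± 0.13, edgeR adjusted p = 0.638), and the list median was 0.15.

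Fatty acid uptake and binding had 3 tested genes of 7, with none past the threshold in edgeR or DESeq2 and 0 at an unadjusted p under 0.05, from DBI, the acyl-CoA binding protein (log2 -0.13 ± 0.07), to GOT2 (log2 -0.01 ± 0.09). CD36, a fatty acid receptor, stood at 0.02 CPM in each group mean, under the floor. Of the PPAR and RXR receptors and coactivators, 6 of 8 were tested and none passed in edgeR or DESeq2 (0 at an unadjusted p under 0.05), from PPARA (log2 -0.45 ± 0.34) to PPARGC1B (log2 0.52 ± 0.33), both low transcripts. PPARD, the receptor that GW0742 binds, stood at 51.5 ± 3.8 and 55.7 ± 2.5 CPM (log2 0.11 ± 0.08, edgeR adjusted p = 0.499). Of 4 tested other PPAR targets 3 rose in edgeR: ANGPTL4 (log2 3.14 ± 0.15, adjusted p = 0.000193), PDK4 (4.05 ± 0.30, adjusted p = 0.00151) and CAT, which is counted in both lists. None fell, and DESeq2 and the unadjusted p under 0.05 also gave 3 higher and 0 lower. Of all tested models 0.184% were higher in edgeR, 1.46% in DESeq2 and 7.93% by unadjusted p. PDK4 stood at 0.24, 0.38 and 0.24 CPM with DMSO, near the floor of 3 reads, and at 3.83, 5.17 and 5.16 CPM with GW0742. It passed the filter on low counts only through the GW0742 libraries, so the size of its fold is uncertain. UCP3, a mitochondrial carrier, did not pass (log2 -0.08 ± 0.24). That list was chosen with the response of these libraries known and is no independent evidence of direction.

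**Figure D4:**
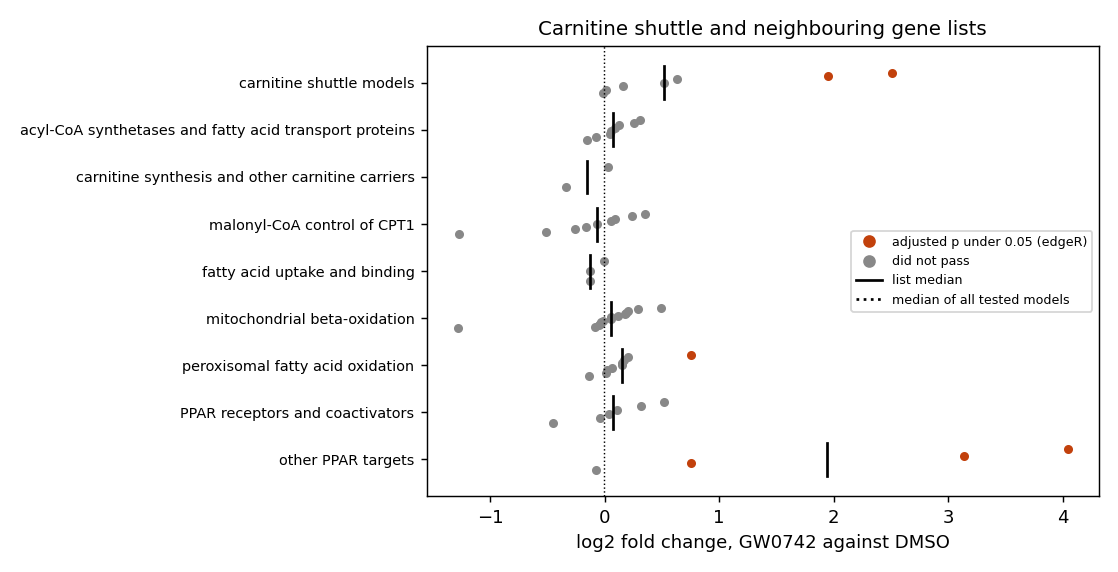
Log2 fold changes, GW0742 against DMSO, of the tested carnitine shuttle models and of the tested genes in 8 neighbouring lists, with black bars for list medians and a dotted line for the median of all tested models. Orange points passed at an adjusted p under 0.05 in edgeR: 2 in the carnitine shuttle, 1 in peroxisomal oxidation and 3 among other PPAR targets, where CAT appears again.

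The tested models whose pattern was most like that of CPT1A were sought among those with a symbol and a mean of at least 1 CPM. The measure was the root mean square difference in log2 CPM over the 6 libraries, after each model was centred on its own mean. The second CPT1A model, which has no symbol, differed by 0.28 and ranked 3 among all tested models. Of the 5 closest models with a symbol, 4 are given here: PPP1R14C differed by 0.32, DLL4 by 0.36, ADGRL4 by 0.38 and SPOCK2 by 0.40, all low transcripts with DMSO means between 0.50 and 0.96 CPM. Of these 4, DLL4 passed in edgeR (adjusted p = 0.0333) and the others did not (adjusted p from 0.0764 to 0.125). PPP1R14C, ADGRL4 and SPOCK2, at DMSO means of 0.61, 0.55 and 0.50 CPM, passed the filter on low counts only through the GW0742 libraries. All 4 were picked for likeness to CPT1A over the same 6 libraries. Their rise with GW0742 and these p-values are therefore built into the choice and are no independent evidence. Among the other members, SLC25A20 differed from CPT1A by 0.72, SLC22A5 by 0.82, CROT by 0.93, CRAT by 0.99 and CPT2 by 1.01. In the DMSO group ANGPTL4, like both CPT1A models, was lowest in replicate 1, at 16.03 CPM against 26.5 and 21.5 CPM. CAT was highest in that replicate, at 65.6 CPM against 63.5 and 59.6 CPM. PDK4 was level in replicates 1 and 3, at 0.24 CPM each. Whether the order of the DMSO libraries is shared between these genes was not tested.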

How the data were processed

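Each deposited library table holds 2 measures per gene model, per the file headers: estimated counts of reads, and RPKM (reads scaled by model length and by library depth). The authors' series table holds the same RPKM for all 19670 models (0 values differed by over 0.01%). According to the labels, poly(A) RNA was enriched, fragmented and sequenced on an Ion Proton, and no strand-marking step is named. Sscrofa10.2 is the genome build in the submitters' processing notes. Aligner, counting program and annotation release: not given in the sources used here.

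Symbols came from a gene name table (11147 models) and, for 567 more, from protein and pathway matches that led to 1 unused symbol of RefSeq (Sscrofa11.1). Estimated counts were rounded, filtered with filterByExpr (minimum count 10), scaled by TMM and tested in edgeR 4.0.16 (R 4.3.3) by the quasi-likelihood F-test over 14146 models, with two-sided Benjamini-Hochberg adjusted p-values and a threshold of 0.05. Single ratios were compared by exact permutation. The edgeR and DESeq2 tests were checked on simulated counts, and the permutation and limma tests were not. Alternatives were median-of-ratios scaling, DESeq2 1.42.0, no filter, each library left out, the replicate number as a block, limma 3.58.1 on log2(RPKM + 1) and log2(RPKM + 0.1), summed models, and an adjusted p under 0.01. The members and lists were chosen with earlier results of these data known. The rule for named genes takes every member, the called and the extreme genes of 8 lists, and the 5 models most like CPT1A. Of those 5, 1 gene is not reported here. ACACB, BBOX1, PRKAB2, CD36 and PPARD were named outside the rule, after their values were seen.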

Additional observations from a re-analysis of the deposited data

How the results depend on the processing

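Over the 7 tested carnitine shuttle models, 79 of 90 alternative values kept their direction and their side of the threshold. CPT1A lost its call in 1 alternative and SLC25A20 gained one in 2, as given above. The sign of values near 0 turned in 8. For CPT2 these were limma on log2(RPKM + 1) and log2(RPKM + 0.1) with 0.011 and 0.012, and leaving out DMSO replicate 2 (0.023), GW0742 replicate 2 (0.027) or GW0742 replicate 3 (0.0092), in a range from -0.072 to 0.027 over left-out libraries. For CRAT they were leaving out DMSO replicate 1 (-0.020), GW0742 replicate 1 (-0.017) or GW0742 replicate 2 (-0.011), in a range from -0.020 to 0.067. None of these passed the threshold. Members higher were 2 in each alternative, except 3 in DESeq2 and 1 in limma on log2(RPKM + 0.1), and members lower were 0. With models of 1 protein name summed, the 2 were CPT1A, with both its models in 1 sum, and SLC25A20. Over all models 26 were higher and 11 lower. DESeq2 gave 207 and 234, no filter 13 and 3, limma with a pseudocount of 1 gave 13 and 2, limma with 0.1 gave 7 and 4, summed models 50 and 28, and an adjusted p under 0.01 gave 6 and 0 (1260 lower at an unadjusted p under 0.05 in edgeR). Over the fits that lack 1 library these counts ran from 6 to 54 and from 0 to 47. They were 6 and 0 without DMSO replicate 1, 7 and 0 without DMSO replicate 3, 10 and 0 without GW0742 replicate 1, 15 and 7 without GW0742 replicate 2, and 54 and 47 without GW0742 replicate 3. The cause was not tested. The share of reads on the second CPT1A model differed by 5.65 to 6.63 points, and the log2 ratio of CPT1A to CPT2 by 1.81 to 2.09, over left-out libraries. The RPKM values gave 9.12 points. The replicate numbers showed no pairing (correlations of same-numbered deviations 0.0054, -0.032 and -0.10). A replicate block left 10 models higher and 0 lower, with both CPT1A models still called. In a library of this depth 3 reads limit what can be seen of CPT1C.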

Other observations

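Further models with annotated carnitine or related transport, named after their values were seen, did not pass. ENSSSCG00000002520, with the protein name of the carnitine/acylcarnitine carrier relative CACL, stood at 12.96 ± 2.8 and 14.5 ± 0.55 CPM (SD, n = 3; log2 0.16 ± 0.16, edgeR adjusted p = 0.655). SLC22A15, a member of the family of SLC22A5, stood at 13.1 ± 0.57 and 14.8 ± 2.6 CPM (log2 0.17 ± 0.14, edgeR adjusted p = 0.558). SLC22A4, a close relative of SLC22A5, had 6 reads over the DMSO libraries and 8 over the GW0742 libraries, too few to test.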
